A study of Mus musculus with 18 samples.

Results

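The genes described are 10 neighbours on the proximal X chromosome of the mouse, Tbc1d25, Ebp, Rbm3, Wdr13, Ftsj1, Suv39h1, Was, Porcn, Praf2 and Gpkow. They were chosen by symbol, from levels already seen in these libraries, and all 10 were found among the 24346 genes of each table, in all 18 libraries. Because the choice used levels in every group, the differences between groups are given for these genes as descriptions, with a standard error (SE) and no p-value. Where a gene of the 10 is said to be called or to meet a rule, that describes its size and spread. It is not a test of a gene chosen beforehand. The RNA came from female hybrid mouse embryonic stem (ES) cells, in which single-nucleotide polymorphisms (SNPs) assign reads to an allele. Tsix-stop cells are a hybrid whose X chromosomes come from a laboratory strain (X129) and from Mus castaneus (cast). A transcriptional stop in Tsix on X129 makes that X the inactive X (Xi) upon differentiation; every Tsix-stop library, controls included, carries it. The 10 Tsix-stop libraries comprise 2 wild-type (wt), 2 Kdm6a knockout (KO) and 1 CRISPR control library on each of days D0 and D15. The 2 KO libraries of a day come from clones with both copies of Kdm6a edited within the gene; the CRISPR control is a single clone that went through editing without a deletion. E8 cells are a BL6 x cast hybrid whose X inactivation is random but skewed towards silencing of the BL6 X, in which the promoter of Kdm6a was deleted on both alleles in a single KO clone; wt and KO have 2 libraries each on D7 and D15. Cells were differentiated without direction as embryoid bodies after removal of leukemia inhibitory factor, so D0 is the undifferentiated state.

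X inactivation silences most genes on a single X of each female cell. It starts when the long noncoding RNA Xist is induced on the future Xi and spreads along that chromosome. Kdm6a is itself X-linked and encodes a demethylase that removes the repressive mark H3K27me3. A gene that is silenced in this way loses RNA from the Xi allele (X129 in Tsix-stop cells) and keeps RNA from the active X (Xa, cast in these cells). The 10 genes have unrelated roles. Ebp encodes a sterol isomerase of cholesterol synthesis, Porcn the acyltransferase that lipid-modifies Wnt proteins before their secretion, Suv39h1 a histone H3K9 methyltransferase, Was an actin regulator of blood cells, Rbm3 a cold-inducible RNA-binding protein, Ftsj1 a tRNA methyltransferase, Tbc1d25 a Rab GTPase-activating protein, Wdr13 a WD-repeat protein, Praf2 a PRA1-domain membrane protein and Gpkow a G-patch nuclear protein.

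The genes lie between positions 7697131 and 8252406 of the mm10 X, a stretch of 555276 bases with 40 annotated gene starts. Gpkow (7697131 to 7710262) and Praf2 (7728439 to 7731064) are on the plus strand. The other 8 are on the minus strand: Suv39h1 (8061171 to 8074760), Was (8081453 to 8090498), Wdr13 (8123301 to 8132892), Rbm3 (8138975 to 8145880), Tbc1d25 (8154472 to 8176181), Ebp (8185329 to 8193512), Porcn (8193848 to 8206525) and Ftsj1 (8238668 to 8252406). Ebp and Porcn are 335 bases apart, whereas 330106 bases separate Praf2 from Suv39h1, so the set is not a single unbroken cluster and 30 other annotated genes start within it. Rbm3 overlaps the antisense gene Rbm3os, Suv39h1 overlaps Gm14820 and Praf2 overlaps Gm45208; the library kit does not mark strand, so reads of the overlapping parts cannot be told apart.

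Promoters are printed for 4 genes whose D15 levels lay on opposite sides in wt and KO Tsix-stop cells: Tbc1d25 and Ebp, higher in KO, and Suv39h1 and Was, lower in KO. Each is the 300-base window around a transcription start from RefSeq (GRCm38.p6), on the minus strand and written 5′ to 3′, with the CG dinucleotides in capitals. The windows are chrX:8175875-8176174 for Tbc1d25, chrX:8193463-8193762 for Ebp, chrX:8074711-8075010 for Suv39h1 (the more upstream of its pair of windows) and chrX:8090442-8090741 for Was.
Tbc1d25: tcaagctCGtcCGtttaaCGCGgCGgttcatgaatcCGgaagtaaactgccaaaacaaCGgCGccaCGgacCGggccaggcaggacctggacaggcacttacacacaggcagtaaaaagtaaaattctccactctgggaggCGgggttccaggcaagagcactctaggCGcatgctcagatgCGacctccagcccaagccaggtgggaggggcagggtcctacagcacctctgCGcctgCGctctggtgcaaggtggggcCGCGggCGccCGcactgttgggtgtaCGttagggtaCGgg
Ebp: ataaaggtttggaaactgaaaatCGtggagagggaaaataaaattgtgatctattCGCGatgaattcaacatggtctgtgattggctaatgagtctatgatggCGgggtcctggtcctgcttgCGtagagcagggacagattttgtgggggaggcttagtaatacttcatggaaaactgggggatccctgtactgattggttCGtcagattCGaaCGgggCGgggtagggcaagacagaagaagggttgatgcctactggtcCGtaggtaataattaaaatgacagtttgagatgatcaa
Suv39h1: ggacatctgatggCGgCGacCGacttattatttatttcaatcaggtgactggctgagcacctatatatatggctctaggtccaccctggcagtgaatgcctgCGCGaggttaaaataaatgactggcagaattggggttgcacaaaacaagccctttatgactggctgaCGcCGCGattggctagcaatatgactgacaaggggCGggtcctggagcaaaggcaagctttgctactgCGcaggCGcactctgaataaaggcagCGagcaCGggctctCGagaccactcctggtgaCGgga
Was: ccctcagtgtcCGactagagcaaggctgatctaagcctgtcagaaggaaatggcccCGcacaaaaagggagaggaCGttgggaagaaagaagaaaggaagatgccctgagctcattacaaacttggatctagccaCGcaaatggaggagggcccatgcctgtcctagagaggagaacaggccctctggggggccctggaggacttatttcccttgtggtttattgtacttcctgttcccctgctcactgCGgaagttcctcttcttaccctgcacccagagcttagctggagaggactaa

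The Tbc1d25 window held 21 CG dinucleotides, that of Suv39h1 15, that of Ebp 10 and that of Was 5, against a median of 7 over 32851 promoter windows. The second Suv39h1 window, further downstream, held 37. RefSeq windows were found for 8 of the 10 genes. Of 6 motifs searched on both strands, none contained in another, the Ebp and the Suv39h1 window each held GGGCGG (in 35.7% of all windows) once, CCAAT (37.4%) 2 times and ATGGCGG (4.05%) once. The Tbc1d25 window held CCGGAAG (8.86%) once and no other motif. The Was window held no match to these or to CACGTG (7.15%) and TGACGTCA (1.79%). Ebp and Suv39h1, on opposite sides of the difference between wt and KO, thus carried the same matches.

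Several libraries did not behave as their labels say. Diploid counts in Tsix-stop cells totalled 51091152 to 68796179 per library, with 9210225 to 12095548 SNP reads. Kdm6a was listed at 0.00578 to 0.0319 TPM (transcript abundance, normalised for gene length and depth) in the 4 E8 KO libraries and at 46.7 to 47.8 TPM in the 4 E8 wt libraries. In Tsix-stop cells at D0 it was at 54.1 and 85.7 TPM in wt, 53.7 in the CRISPR control and 55.6 and 21.2 in KO, and at D15 at 64.3 and 48.9, 43.5, and 41.6 and 12.8 TPM; this count covers all exons of the gene and not only the edited ones, so it does not check the deletion, and KO below means the library labelled KO. Xist was at 167 and 83.5 TPM in wt and 19.4 and 49.7 TPM in KO Tsix-stop libraries at D15, but at 1.14 to 6.03 TPM in the 4 E8 wt libraries. Pluripotency markers in E8 wt summed to 13042 to 13165 TPM at D7 and 16695 to 17465 TPM at D15, so the later day was not the more differentiated by this list. In Tsix-stop wt they summed to 12954 to 13667 TPM at D0 and 8701 to 9309 TPM at D15. By this list E8 wt was thus no further differentiated than Tsix-stop D0 on either labelled day, though TPM was not computed alike in the lines. The labelled D15 of E8 is therefore not shown to match D15 of Tsix-stop cells. The methods give earlier days for E8 than the labels, and the E8 libraries of a pair may be technical replicates of a single culture. The files of the CRISPR control are named as KO, and its values are shown apart.

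At D15 in Tsix-stop cells, 7 of the 10 genes were higher in both KO libraries than in both wt libraries, 2 were lower and Praf2 overlapped. Porcn and Tbc1d25 stood farthest apart, at more than 4-fold and 3-fold, and Ebp, Rbm3 and Ftsj1 were near 2-fold. Such separation was common: 35.9% of all genes were higher in both KO libraries and 37.8% lower. By the rule of a false discovery rate (FDR) of at most 0.1 and at least 2-fold, 3 of the 10 genes were called (Tbc1d25, Porcn and Was), beside 14.9% of the 13121 genes tested. Nothing is read from that count, or from any later count of the 10 genes called, since the genes were chosen for such differences. The median log2 fold change was 0.71 over the 10 genes, 0.22 over 482 other X genes and -0.0018 over all genes.

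Porcn, the Wnt acyltransferase, was at 50.9 and 54.9 TPM in wt, 142 TPM in the CRISPR control and 263 and 213 TPM in KO at D15. The groups did not overlap and the CRISPR control lay between them; the log2 fold change of KO against wt was 2.17 ± 0.16 (SE, edgeR). Tbc1d25, a regulator of Rab GTPases in autophagy, was at 34.1 and 37.9 TPM in wt, 60.3 TPM in the CRISPR control and 111 and 119 TPM in KO. Its log2 fold change was 1.67 ± 0.12 (SE), and again the control lay between the groups.

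Ebp, Rbm3, Ftsj1 and Wdr13 were also higher in both KO libraries at D15, with smaller steps. Ebp was at 105.4 and 105.2 TPM in wt and 201 and 199 TPM in KO, with the CRISPR control at 116 TPM, close to wt (log2 fold change 0.93 ± 0.12 SE). Rbm3 was at 20.8 and 17.1 TPM in wt and 32.1 and 39.5 TPM in KO (0.92 ± 0.14), and Ftsj1 at 19.8 and 22.4 TPM in wt and 40.2 and 35.5 TPM in KO (0.84 ± 0.14). For both genes the CRISPR control, at 24.7 TPM for Rbm3 and 28.5 TPM for Ftsj1, was above wt and below KO. Wdr13 was at 30.3 and 28.1 TPM in wt, 30.1 TPM in the control and 41.5 and 45.4 TPM in KO (0.58 ± 0.13).

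Suv39h1 and Was were on the other side at D15. Suv39h1, which marks heterochromatin with H3K9 methylation, was at 93.5 and 90.4 TPM in wt, 62.4 TPM in the CRISPR control and 52.5 and 68.5 TPM in KO (log2 fold change -0.61 ± 0.13 SE). The control fell inside the KO range, not the wt range. Was, known from the Wiskott-Aldrich syndrome, was at 3.35 and 3.77 TPM in wt, 2.18 TPM in the control and 1.60 and 1.93 TPM in KO (-1.01 ± 0.27). Its counts in the KO libraries at D15 were 60 and 65 reads, and the gene passed the filter of 2.5 CPM (counts scaled to the library total) in 2 libraries through D0. The Was difference was just past 2-fold and did not stay so without single libraries: it was -0.89 without KO replicate 1 of D15, -0.88 without wt replicate 2 of D15 and -0.99 without KO replicate 2 of D0. Gpkow and Praf2 at the centromeric end moved least. Gpkow was at 53.5 and 46.7 TPM in wt and 55.2 and 61.0 TPM in KO (0.22 ± 0.11), and Praf2 at 192 and 212 TPM in wt and 241 and 194 TPM in KO (0.11 ± 0.20). The Praf2 difference was -0.062 without KO replicate 1 of D15, that is, of the other sign.

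**Figure D1:**
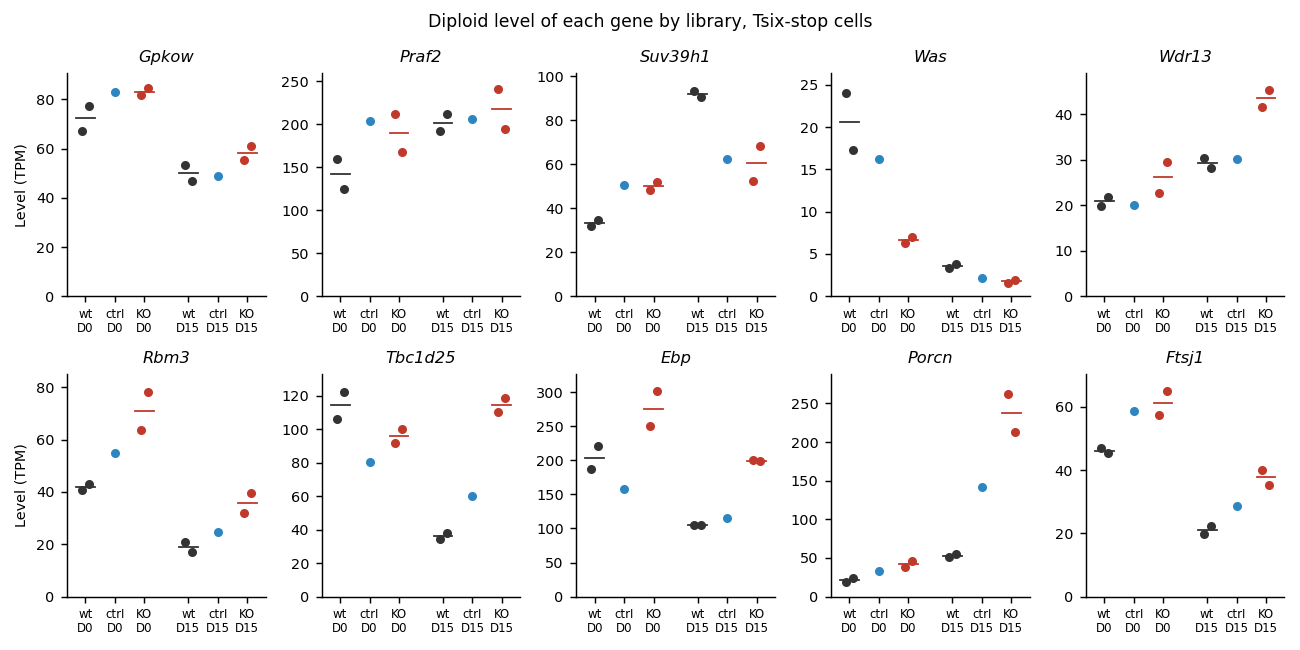
Diploid level (TPM, y axis from 0, its scale set per gene) of the 10 genes in Tsix-stop cells, in order along the X, for wt (black), CRISPR control (blue) and KO (red) libraries at D0 and D15. Each point is a library and each bar the mean of 2; at D15 the KO points lie above the wt points for 7 genes, below them for Suv39h1 and Was, and overlap them for Praf2.

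The makeup of the D15 libraries differed beside these results. The 6 fibroblast markers summed to 2574 to 2902 TPM in wt, 205 to 261 TPM in KO and 107 TPM in the CRISPR control, with Col1a1 at 1459 and 1655 TPM in wt and 129.2 and 153 TPM in KO. The 5 visceral endoderm markers summed to 559 to 667 TPM in wt, 19.9 to 42.6 TPM in KO and 17.2 TPM in the control. The 8 pluripotency markers, all above 1 TPM in every library, summed to 8701 to 9309 TPM in wt, 10898 to 13767 TPM in KO and 7742 TPM in the control, and the 7 blood markers to 84.3 to 92.4, 59.6 to 78.3 and 37.5 TPM, respectively. The blood sum was higher at D0, at 112 to 125 TPM in wt, 158 to 228 TPM in KO and 151 TPM in the control. Ptprc, Hbb-bh1 and Hba-x were at 0 there, so this sum is no measure of blood cells. The part of this makeup in the differences of the 10 genes was not tested, and in bulk RNA fewer cells of a type and less RNA per cell cannot be told apart.

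Per allele, the level of a gene is its diploid level times the share of its SNP reads from that allele. At D15 the X129 allele of Tbc1d25 gave 10.6 and 11.7 TPM in wt and 49.4 and 56.6 TPM in KO, and its cast allele 23.5 and 26.2 TPM in wt and 61.1 and 62.0 TPM in KO. Both alleles were thus higher in KO, by log2 2.31 ± 0.16 (SE) in X129 reads and 1.37 ± 0.15 in cast reads. For Porcn the X129 allele gave 21.5 and 17.4 TPM in wt and 133 and 96.6 TPM in KO, a log2 difference of 2.40 ± 0.32. Its cast allele gave 29.4 and 37.5 TPM in wt and 129.4 and 116 TPM in KO (1.75 ± 0.24). The higher levels of both genes in KO were thus found on the Xi and on the Xa allele.

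The same held with smaller steps for other genes. The X129 reads were higher in KO by log2 1.11 ± 0.16 for Ebp, 1.34 ± 0.20 for Rbm3, 1.19 ± 0.17 for Ftsj1 and 1.14 ± 0.20 for Wdr13. Their cast reads were higher by 0.87 ± 0.13, 0.83 ± 0.26, 0.55 ± 0.15 and 0.48 ± 0.18, in the same order. In each of these 4 genes the estimate for X129 was above that for cast. Gpkow and Praf2 were higher in X129 reads (0.96 ± 0.15 and 0.48 ± 0.25), with cast reads at 0.25 ± 0.14 and -0.29 ± 0.17.

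The estimates for the alleles of Praf2 had opposite signs, but its cast levels overlapped between wt and KO. The alleles of Suv39h1 lay on opposite sides without overlap. Its X129 allele gave 13.2 and 14.2 TPM in wt and 27.8 and 23.1 TPM in KO at D15, and its cast allele 80.3 and 76.2 TPM in wt and 24.6 and 45.4 TPM in KO. The lower diploid level of the H3K9 methyltransferase in KO was thus on the cast, active X (log2 -1.20 ± 0.30 in cast reads against 0.85 ± 0.33 in X129 reads). The X129 share was 14.9% ± 1.07 (SD, n = 2) in wt and 43.4% ± 13.7 (SD, n = 2) in KO. These shares rest on 130 to 297 SNP reads per library at D15, about 3 for each 100 counts of the gene. The 95% Wilson interval was 44.5% to 61.4% in KO replicate 1 and 27.03% to 41.1% in KO replicate 2, so these libraries differed beyond counting error. A difference of clone cannot be told from one of culture or library. The difference in cast reads was -0.76 without KO replicate 1 of D15, and it was no longer called without that library or without wt replicate 1 of D15. Was had 2 to 12 SNP reads per library at D15, with 5 and 9 reads of X129 in wt and 0 and 1 in KO, so no fold is given; the Wilson interval of its share in KO replicate 1 ran from 0% to 65.8%. Intervals cover counting error only.

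**Figure D2:**
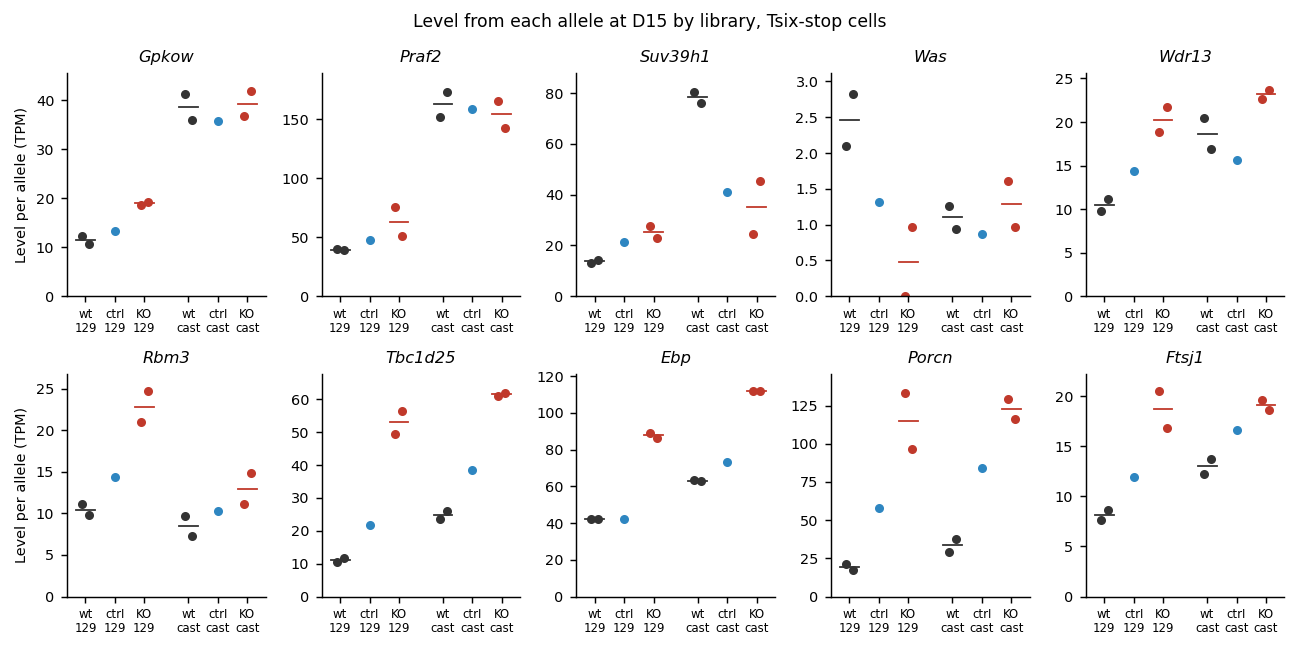
Level per allele (TPM, y axis from 0, its scale set per gene) at D15 in Tsix-stop cells, from the X with the Tsix stop (left of each panel) and the cast X (right), for wt (black), CRISPR control (blue) and KO (red) libraries, with bars at the mean of 2. For Tbc1d25, Ebp and Porcn the KO points lie above the wt points on both alleles; for Suv39h1 they lie above on the left and below on the right.

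In X129 reads at D15, 6 of the genes were called, all higher in KO, beside 14.8% of 12298 genes tested (5.79% higher and 9.05% lower) and 31.5% of 428 X genes. Was, whose few reads at D15 carry no fold, is left out of this count. In cast reads 3 were called (Tbc1d25, Porcn and Suv39h1), beside 16.5% of all genes. Nothing is read from these counts either, for the reason given above. The median log2 fold change in X129 reads was 1.12 over the 10 genes and 0.74 over 418 other X genes, and in cast reads 0.52 and -0.031. In the share of X129 in a paired-allele model, Suv39h1 was the 1 gene called, beside 4.95% of all and 27.1% of X genes; with the CRISPR control counted as wt it was not called. The X129 share at D15 was lower in wt than in KO for 9 genes, Was being the exception, beside 86.4% of 418 other X genes and 61.2% of all genes. In the paired-allele model the median log2 difference was 0.65 over the 10 genes and 0.77 over the other X genes. Tbc1d25 was at 31.0% ± 0.122 (SD, n = 2) in wt and 46.2% ± 2.13 (SD, n = 2) in KO. Gpkow was at 22.8% ± 0.00344 in wt and 32.6% ± 1.42 in KO, and Praf2 at 19.6% ± 1.75 and 28.8% ± 3.51 (SD, n = 2). Over the measured X genes the median X129 share was 29.0% and 31.5% in the wt libraries and 45.7% and 40.9% in the KO libraries. Suv39h1, Praf2 and Gpkow were below these wt medians. In wt at D0 their shares were 54.2%, 42.4% and 35.8% (means of 2), beside X medians of 48.9% and 49.7%, so Gpkow had a low share before differentiation. From D0 to D15 in wt the log2 ratio of X129 to cast changed by -2.80 for Suv39h1, -1.60 for Praf2, -0.90 for Gpkow and -0.43 for Tbc1d25. The median over the other X genes was -1.03. Rbm3 had an X129 share of 72.8% ± 0.872 in wt at D0 and 55.5% ± 2.98 at D15 (SD, n = 2), the latter above that of every other gene here with more than 12 SNP reads.

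Before differentiation, at D0, the order of the groups was not the same. Tbc1d25 was at 106 and 123 TPM in wt, 80.3 TPM in the CRISPR control and 91.5 and 100.1 TPM in KO, so the gene was lower in KO (log2 -0.37 ± 0.12 SE). Suv39h1 was at 32.1 and 34.6 TPM in wt, 50.4 TPM in the control and 48.5 and 52.0 TPM in KO, here higher in KO (0.48 ± 0.13). For both genes the control lay outside the wt range and, for Suv39h1, inside the KO range. Porcn was already higher at D0, at 19.2 and 23.8 TPM in wt, 32.6 TPM in the control and 38.8 and 45.6 TPM in KO (0.86 ± 0.16). Was showed the widest gap of D0, at 24.0 and 17.3 TPM in wt, 16.2 TPM in the control and 6.31 and 7.002 TPM in KO (-1.76 ± 0.26). Was alone among the 10 was called at D0, beside 8.08% of all genes, and it was not called when the control was counted as wt.

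The remaining genes were higher in both KO libraries at D0. Rbm3 was at 40.7 and 43.1 TPM in wt, 54.9 TPM in the control and 63.8 and 78.2 TPM in KO (0.64 ± 0.14), and Ebp at 187 and 221 TPM in wt, 157 TPM in the control and 250.1 and 302 TPM in KO (0.32 ± 0.12). Ftsj1, Wdr13, Praf2 and Gpkow differed by 0.29 ± 0.14, 0.21 ± 0.13, 0.30 ± 0.20 and 0.09 ± 0.11. In all, 8 genes were higher and 2 lower without overlap at D0, beside 39.5% and 20.2% of all genes. Per allele, Suv39h1 at D0 was higher in KO by 1.21 ± 0.36 in X129 reads and 1.15 ± 0.40 in cast reads, so the sides its alleles took at D15 were not those of D0. These folds rest on 33 to 94 SNP reads per library. SNP reads per 100 counts of the gene were 1.15 in wt and 1.88 in KO, so the folds in reads also hold a change in SNP coverage. As diploid level times share, the X129 allele gave 18.2 TPM in wt and 28.0 TPM in KO, and the cast allele 15.2 and 22.3 TPM (means of 2). In reads, Was was lower on both alleles (-1.66 ± 0.43 and -1.59 ± 0.46), and Rbm3 was higher by 0.72 ± 0.19 and 1.15 ± 0.25. In X129 reads 2 genes were called at D0, beside 6.29% of all, and in cast reads 3, beside 8.77%. These counts fell to 0 with the control counted as wt. The CRISPR control was above both wt libraries at D0 for Rbm3, Ftsj1, Porcn, Praf2, Gpkow and Suv39h1.

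From D0 to D15, Tbc1d25, Ebp, Rbm3 and Ftsj1 lost more than 2-fold in wt, beside 13.6% of all genes called lower. Was was lower too, but it passed the filter through D0 only and is left out of the counts between days. Tbc1d25 changed by log2 -1.83 ± 0.12 (SE) in wt and 0.21 ± 0.12 in KO, so the fall seen in wt was not seen in KO. Ebp, Rbm3 and Ftsj1 were lower at D15 in both genotypes: Ebp by -1.12 ± 0.12 in wt and -0.51 ± 0.12 in KO, Rbm3 by -1.31 ± 0.15 and -1.04 ± 0.14, and Ftsj1 by -1.30 ± 0.14 and -0.74 ± 0.14. Was was the lowest against D0, at -2.71 ± 0.27 in wt and -1.96 ± 0.27 in KO. Suv39h1 and Porcn went up instead. Suv39h1 was higher at D15 by 1.30 ± 0.13 in wt and 0.22 ± 0.13 in KO, and Porcn by 1.14 ± 0.16 in wt and 2.45 ± 0.16 in KO. Wdr13 (0.32 ± 0.13 and 0.69 ± 0.13), Praf2 (0.34 ± 0.20 and 0.15 ± 0.20) and Gpkow (-0.69 ± 0.11 and -0.56 ± 0.11) differed little between genotypes. The 2-fold and FDR rule was met by 6 genes in wt, beside 37.8% of all genes, and by 2 in KO (Rbm3 and Porcn), beside 27.6%. The difference of these day effects between genotypes, the interaction, was 2.04 ± 0.17 for Tbc1d25, 1.31 ± 0.22 for Porcn and -1.08 ± 0.18 for Suv39h1, the 3 genes that met the rule, beside 17.1% of all genes. With the CRISPR control counted as wt, Porcn was at 0.89 and Suv39h1 at -0.70, and 1 gene met the rule.

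In E8 cells the same genes were arranged otherwise. Suv39h1 was the gene with the widest gap: it was at 33.7 and 34.8 TPM in wt and 151 and 143 TPM in KO at D7, and at 44.7 and 47.2 TPM in wt and 126 and 124 TPM in KO at D15. The methyltransferase was higher in KO by log2 2.07 ± 0.04 (SE, limma on log2(TPM + 1)) at D7 and 1.43 ± 0.04 at D15. On that scale the change of low genes is understated. Was was again lower, at 3.33 and 3.59 TPM in wt and 0.909 and 0.712 TPM in KO at D7 (-1.30 ± 0.10), and at 2.56 and 3.21 TPM in wt and 1.37 and 1.32 TPM in KO at D15 (-0.72 ± 0.10). It passed the filter of 2.5 TPM in 2 libraries through the wt libraries. Suv39h1 was called on both days, beside 17.5% of 12452 genes at D7 and 10.7% at D15; Was is not counted.

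Of the 7 genes that were higher in KO Tsix-stop cells at D15, Porcn, Tbc1d25, Ebp and Rbm3 were lower in KO E8 cells at D15, and Gpkow, Ftsj1 and Wdr13 were higher there too. Porcn was at 73.5 and 69.9 TPM in wt and 70.0 and 71.4 TPM in KO at D7 (-0.02 ± 0.06), and at 66.2 and 74.0 TPM in wt and 50.6 and 52.7 TPM in KO at D15 (-0.43 ± 0.06). Tbc1d25 was at 42.5 and 39.7 TPM in wt and 38.6 and 35.0 TPM in KO at D7 (-0.16 ± 0.06), and at 36.4 and 40.0 TPM in wt and 31.5 and 30.1 TPM in KO at D15 (-0.30 ± 0.06). Both genes were lower without overlap at D15. Ebp was at 79.1 and 88.3 TPM in wt and 54.9 and 55.1 TPM in KO at D15 (-0.59 ± 0.06), and Rbm3 at 50.0 and 51.5 TPM in wt and 41.9 and 40.9 TPM in KO (-0.29 ± 0.03). At D7 these differences were -0.16 ± 0.06 for Ebp and 0.02 ± 0.03 for Rbm3.

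Gpkow, Praf2, Ftsj1 and Wdr13 were higher in E8 KO libraries, more at D7 than at D15. Gpkow, the most centromeric gene, was at 25.5 and 25.3 TPM in wt and 42.3 and 42.8 TPM in KO at D7 (0.72 ± 0.03) and differed by 0.44 ± 0.03 at D15. Praf2 was at 90.9 and 91.4 TPM in wt and 148 and 141 TPM in KO at D7 (0.66 ± 0.04), and by D15 the difference was 0.11 ± 0.04. Ftsj1 differed by 0.57 ± 0.04 at D7 and 0.15 ± 0.04 at D15, and Wdr13 by 0.55 ± 0.05 and 0.19 ± 0.05. At D7, 6 genes were higher and 3 lower in KO without overlap, beside 52.6% and 37.8% of all genes, and at D15, 5 and 5, beside 52% and 35.2%. The SEs come from libraries that may share a culture and then measure technical spread.

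**Figure D3:**
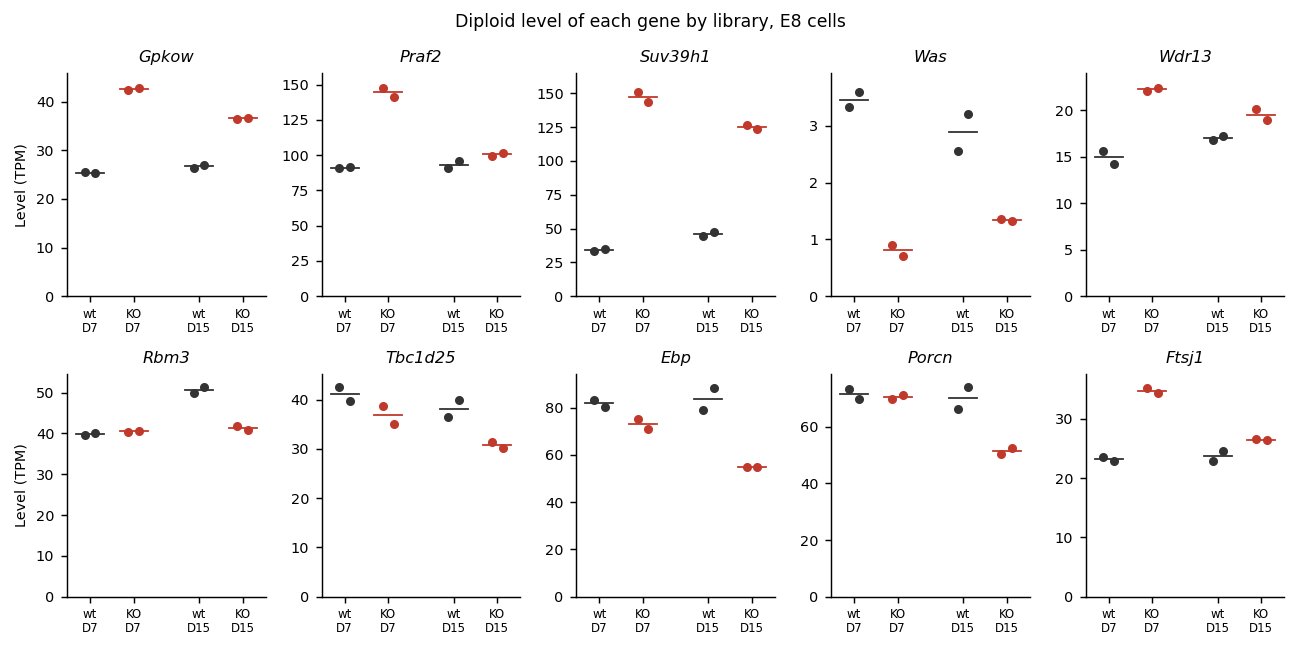
Diploid level (TPM, y axis from 0, its scale set per gene) of the 10 genes in E8 cells, in order along the X, for wt (black) and KO (red) libraries at the labelled D7 and D15; points are libraries and bars the mean of 2. Suv39h1 lies above wt and Was below wt in KO on both days, and Ebp, Porcn, Tbc1d25 and Rbm3 lie below wt at D15.

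Between the labelled days, 4 of the genes were higher at D15 and 1 lower without overlap in E8 wt cells, beside 38.1% and 35.6% of all genes. Rbm3 was higher at D15 by log2 0.34 ± 0.03 in wt and 0.03 ± 0.03 in KO, and Suv39h1 changed by 0.41 ± 0.04 in wt and -0.23 ± 0.04 in KO. In KO, Praf2 (-0.52 ± 0.04), Porcn (-0.45 ± 0.06), Ebp (-0.40 ± 0.06), Ftsj1 (-0.38 ± 0.04), Tbc1d25 (-0.25 ± 0.06), Gpkow (-0.21 ± 0.03) and Wdr13 (-0.18 ± 0.05) were lower at D15, and Was was higher (0.37 ± 0.10). Counting Suv39h1, 8 genes in KO were lower at D15 and 2 higher without overlap, beside 45.1% and 42.1% of all genes. Visceral endoderm markers moved in the same libraries: their sum was 8.22 to 9.41 TPM in wt and 1022.8 to 1023.3 TPM in KO at D7, and 6.06 to 6.42 TPM in wt and 221 TPM in both KO libraries at D15, with all 5 markers above 1 TPM in KO. Pluripotency markers summed to 4477 to 4615 TPM in KO at D7 and 7702 to 7913 TPM at D15, below both wt ranges. In Tsix-stop cells at D15 the KO sum, 10898 to 13767 TPM, was instead above that of wt, 8701 to 9309 TPM. Fibroblast markers summed to at most 48.0 TPM and cardiac markers to at most 23.6 TPM in E8. Their part in the values of the 10 genes was not tested.

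**Figure D4:**
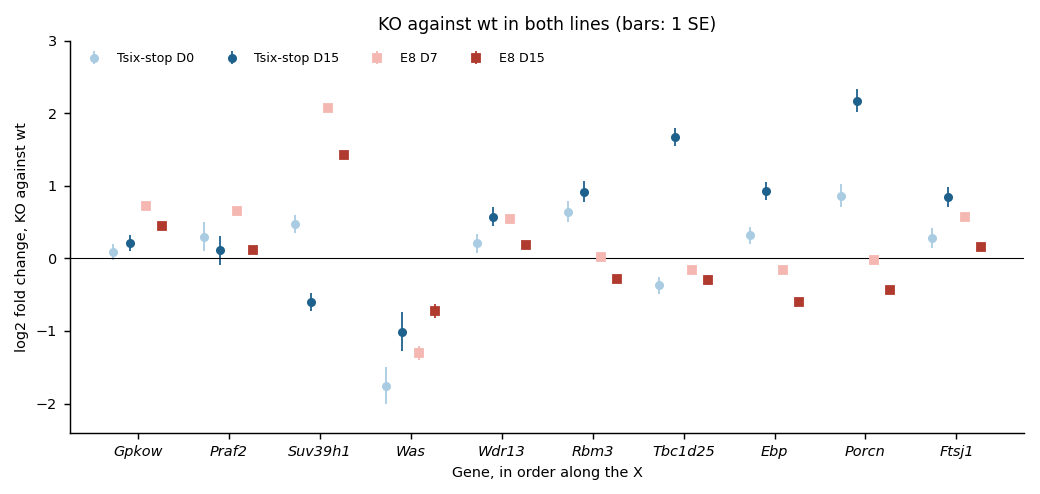
Log2 fold change of KO against wt (y axis, bars 1 SE) for the 10 genes in order along the X, in Tsix-stop cells at D0 and D15 (blue circles) and E8 cells at the labelled D7 and D15 (red squares). At D15 Tbc1d25, Ebp, Rbm3 and Porcn lie above 0 in Tsix-stop and below 0 in E8 cells, and Suv39h1 does the reverse.

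Leaving Was aside, both alleles of the genes were expressed in E8 cells of either genotype, whereas most X genes had a single allele in KO. How the allelic columns were scaled is read here from their values, each column summing to the same total as the diploid one, and the BL6 shares and allele levels rest on that reading. The cast values were multiplied by 0.212 to 0.255 per library so that the median gene had equal alleles. The median BL6 share over the 10 genes was then 49.2% to 52.0% in the wt libraries and 49.4% to 53.2% in the KO libraries. Tbc1d25 had a BL6 share of 48.0% ± 2.09 in wt and 49.8% ± 1.32 in KO at D15, and Suv39h1 54.1% ± 3.28 and 51.6% ± 2.35 (SD, n = 2). The higher Suv39h1 level in KO thus came from both X chromosomes, with 67.3 and 61.7 TPM from BL6 and 59.2 and 62.0 TPM from cast in KO at D15, against 23.1 and 26.6 TPM and 21.6 and 20.6 TPM in wt. Ebp had the widest shift in mean share at D7, from 42.2% ± 1.54 in wt to 50.2% ± 0.00851 in KO (SD, n = 2; log2 ratio 0.45 ± 0.11 SE). Was was too low for a share, at 20.7% and 100% in the KO libraries of D7.

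From Maoa (X, 16619698 to 16687818) to the telomeric end, the median BL6 share was 100% in each of the 4 KO libraries, and 82.9% to 84.9% of the genes there had a share of at least 99%, against 4.40% to 5.22% in wt. The bound between Cask, whose BL6 share in KO was 45.7% to 52.2%, and Maoa, at 100%, was placed after the shares were seen. The other genes proximal to it had median shares of 51.1% to 52.9% in KO, close to those of the 10 genes. In expressed alleles, a pair of X chromosomes was thus seen in E8 KO libraries for the proximal stretch that carries the 10 genes and not for most genes beyond it. Kdm6a and Xist both lie beyond Maoa, at 10.0 and 95.3 Mb from the Tbc1d25 start. The KO libraries are of a single clone, so its genotype cannot be told apart from this single-allele stretch. The median change of the log2 ratio of BL6 to cast from wt to KO was -0.0021 over the 10 genes and 1.83 over 413 other X genes at D7, and 0.084 and 1.84 at D15. The median log2 fold change of KO against wt was -0.71 over 397 genes from Maoa on, 0.25 over 45 other proximal genes and 0.29 over the 10 genes at D7, and -0.63, 0.40 and -0.089 at D15. In the Tsix-stop libraries no such step was seen: at D15 the KO median X129 shares were 45.4% in both libraries for 9 of the genes (Was had too few SNP reads), 42.6% to 44.1% for the other proximal genes and 41.3% to 46.0% from Maoa on.

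**Figure D5:**
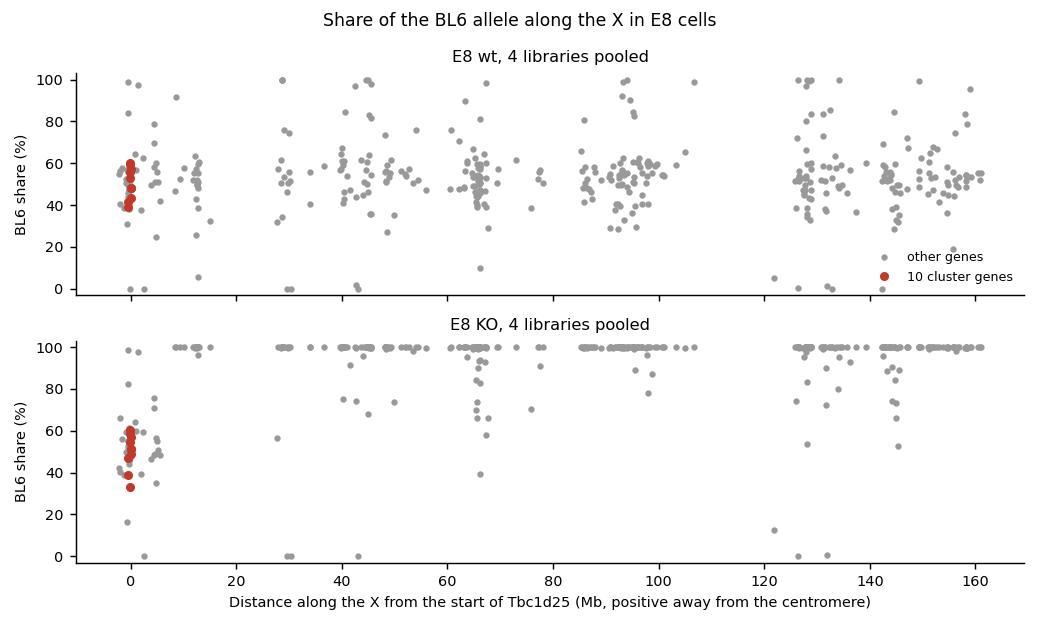
Share of the BL6 allele (y axis, %) of X genes against the distance of the gene's midpoint from the Tbc1d25 start (x axis, Mb, positive away from the centromere) in E8 wt (top) and KO (bottom), each the pooled 4 libraries; red points are the 10 genes, gray points other X genes. In KO the 10 genes lie at intermediate shares, Tbc1d25 at 51.3%, while most genes more distal than Maoa lie at 100%.

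Of 30 other genes that start in the stretch, 18 have a row in the tables and 15 passed the filter in Tsix-stop cells. At D15 their median log2 fold change of KO against wt was 0.057, with 8 of 15 above 0; edgeR and DESeq2 each called 0 of them, and 6 had an unadjusted p below 0.05. The 5 measured neighbours nearest to the Tbc1d25 start were Eras, Gata1, Glod5, Hdac6 and Pcsk1n. Hdac6, a tubulin deacetylase, differed by -0.33 ± 0.13 (SE; adjusted p = 0.0853), and Glod5 by -0.95 ± 0.30 (adjusted p = 0.0369), short of 2-fold. Eras, a Ras-like gene of ES cells, was at 0.38 ± 0.26 (adjusted p = 0.291), Gata1, an erythroid transcription factor, at -0.05 ± 0.27 (adjusted p = 0.905) and Pcsk1n at -0.58 ± 0.34 (adjusted p = 0.218). At D0 Gata1 was lower in KO (-1.41 ± 0.30; adjusted p = 0.0182), the side on which Was lay, and was the 1 neighbour called. These p-values are from edgeR's quasi-likelihood test with Benjamini-Hochberg adjustment over all genes.

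In E8 cells 4 of 16 measured neighbours were called higher at D7 (Ccdc120, Gripap1, Pim2 and Slc35a2) and 2 at D15 (Gata1 and Pim2; these names were picked after the values were seen, except Gata1), beside 17.5% and 10.7% of all genes. Their median log2 fold changes were 0.51 and 0.48. Hdac6 was higher by 0.995 ± 0.04 at D7 (limma, adjusted p = 3.15e-07), just under 2-fold, and by 0.44 ± 0.04 at D15 (adjusted p = 3.76e-05). Gata1 was higher by 1.18 ± 0.15 at D15 (adjusted p = 0.000208).

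Genes that work with the 10 were taken as lists by function. Of the Wnt secretion list (Porcn), 5 of 8 tested members were called lower in KO at D15 in Tsix-stop cells (Wls, Wnt3, Wnt5a, Wnt6 and Wnt11, by log2 -1.71 to -2.39), beside 14.9% of all genes called. In E8 cells at D15, 9 of 9 were called higher in KO, beside 10.7%. Low members of this list passed the filter mainly through the groups where they were high. That tilts both counts towards calls, so nothing is read from them. Wls, the carrier that takes Wnt proteins to the cell surface, was at -2.06 ± 0.50 in Tsix-stop (edgeR, adjusted p = 0.0181) and 2.69 ± 0.05 in E8 cells (limma, adjusted p = 1.47e-08). Porcn itself stood at 2.17 and -0.43 in these comparisons, on the other side of 0 from Wls both times. The difference between the lines was not tested.

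The other lists held few calls. Of 11 other cholesterol synthesis genes (Ebp), edgeR and DESeq2 called 0 at D15 in Tsix-stop cells, with a median of 0.31 and 5 at an unadjusted p below 0.05. In E8 cells Dhcr7 and the X-linked Nsdhl were called lower in KO at D7, beside 17.5% of all genes called, with a median of -0.64 over the list. Nsdhl lies in the stretch from Maoa on, with a BL6 share of 48.9% in wt and 100% in KO. Of X genes, 35.2% were called at D7. Of 8 H3K9 methylation genes and readers (Suv39h1), 1 was called in any diploid comparison, Setdb2, lower at D15 than at D0 in Tsix-stop wt; of KO against wt at D15, edgeR and DESeq2 called 0 in Tsix-stop cells, with 1 at an unadjusted p below 0.05, and the list's medians were 0.12 at D15 in Tsix-stop and 0.094 at D15 in E8 cells. Of 15 actin nucleation genes (Was), Wipf3 was called lower in KO at D0 in Tsix-stop cells, beside 8.08% of all genes called. At D7 in E8 cells Arpc2 was called higher (1.29) and Wasf3 lower (-1.58) in KO, beside 17.5% of all genes, with a median of 0.13 over the list. Of the 2 tRNA methylation partners of Ftsj1, Thada was higher in Tsix-stop KO at D15 (1.23 ± 0.14, edgeR, adjusted p = 0.000684), beside 14.9% of all genes called. Cirbp, the cold-inducible relative of Rbm3, was at -0.12 at D15 in Tsix-stop cells. The PRA1 relatives of Praf2, Arl6ip5 and Rabac1, had a median of -0.42 there.

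Over the 10 Tsix-stop libraries, the mean standardised X129 level of the 10 genes was most like that of Sox2, with a Pearson correlation of 0.979 among 12238 genes ranked. Chek2 (0.977), Cdc45 (0.971), Rad54l (0.971) and Ercc6l2 (0.970) followed, all autosomal. These are descriptions over libraries that share genotype and day. Sox2 was at 499 TPM in wt and 1012 TPM in KO at D15 and at 831 and 1171 TPM at D0 (means of 2). Of the 10 genes, Ftsj1 (0.944), Rbm3 (0.935), Ebp (0.926), Tbc1d25 (0.912) and Gpkow (0.902) followed that mean most closely, whereas Was (0.144) and Porcn (0.153) did not follow it. Each of the 10 genes is itself part of that mean, which raises its correlation. These values are therefore not comparable with those of Sox2 and the other genes outside it.

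Ordered by level per length in Tsix-stop wt cells at D15, Praf2 was highest at 202 ± 14.4 TPM (SD, n = 2), followed by Ebp at 105 ± 0.148, Suv39h1 at 91.9 ± 2.20, Porcn at 52.9 ± 2.82 and Gpkow at 50.1 ± 4.79 TPM. Tbc1d25 at 36.0 ± 2.64, Wdr13 at 29.2 ± 1.54, Ftsj1 at 21.1 ± 1.84, Rbm3 at 18.9 ± 2.67 and Was at 3.56 ± 0.291 TPM made up the lower part. Porcn and Gpkow, and Ftsj1 and Rbm3, were neighbours in this order that did not differ beyond their spread.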

How the data were processed

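RNA-seq was performed on 10 Tsix-stop and 8 E8 libraries. The authors aligned single-end reads of an unstranded kit to pseudo-genomes of the parental strains, based on mm10, and assigned reads over SNPs to an allele; their processing notes name TopHat2 version 2.1.1 and Bowtie2 version 2.4.5. For Tsix-stop cells the deposited values are estimated counts of reads per gene, of which 7.10% were not whole, and were rounded here for the tests; for E8 cells the deposited values are TPM, diploid and per allele, so the depth is unknown there. Tsix-stop TPM was computed here from the diploid counts on the 129 genome and the summed exon length of GENCODE vM21.

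Tsix-stop counts (genes with at least 2.5 CPM in 2 libraries; for alleles also a mean of 20 SNP reads) were tested with edgeR 4.0.16 (quasi-likelihood), with wt and KO of both days in 1 fit. E8 values were tested with limma 3.58.1 on log2(TPM + 1), with genes of at least 2.5 TPM in 2 libraries. Benjamini-Hochberg adjustment was across all genes. A call needed an FDR of at most 0.1 and a 2-fold change. The CRISPR control, with 1 library per day, entered no test. Libraries of a group are treated as replicates, and where they share a culture the SEs and p-values measure only technical spread.

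The members and lists were chosen with earlier results of these data known. Named were the 10 genes, Kdm6a and Xist, at most 5 measured neighbours nearest to Tbc1d25, called members of the function lists and the 5 genes most like the members. The scripts were tested on simulated data. Replicate numbers were not shown to pair the samples (the labels do not tie them to KO clones), and the tests hold no block. DESeq2 1.42.0, its size factors, no filter, another pseudocount, the control added to wt, a replicate block and each library left out were tried.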

Additional observations from a re-analysis of the deposited data

Results flagged for a closer look

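The difference between KO and wt at the labelled D15 was on opposite sides of 0 in the lines for 5 genes, with every KO library beyond every wt library in each line. Such separation was common: 35.9% of all genes were higher and 37.8% lower in Tsix-stop KO, and 52% and 35.2% in E8 KO. The share of all genes on opposite sides in the lines was not computed, so nothing is read from the count. The difference between the lines was not tested. The log2 fold change was 1.67 in Tsix-stop and -0.30 in E8 cells for Tbc1d25, 0.93 and -0.59 for Ebp, and 0.92 and -0.29 for Rbm3. It was 2.17 and -0.43 for Porcn, and -0.61 and 1.43 for Suv39h1.

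In Tsix-stop cells KO and wt were not alike in how levels moved between days: the interaction term of edgeR's fit was 2.04 for Tbc1d25, 1.31 for Porcn and -1.08 for Suv39h1. With the CRISPR control counted as wt, the values of Porcn and Suv39h1 were 0.89 and -0.70, short of 2-fold. In E8 cells the change from D7 to D15 was opposite in wt and KO, without overlap of the libraries and without a test, for Wdr13 (0.18 and -0.18), Suv39h1 (0.41 and -0.23), Was (-0.20 and 0.37) and Gpkow (0.072 and -0.21). Without overlap, 38.1% of all genes were higher and 35.6% lower at D15 in wt, and 42.1% and 45.1% in KO. The share of all genes opposite in the genotypes was not computed, so nothing is read from how many of the 10 genes were.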

How the results depend on the processing

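The 170 fitted differences of the 10 genes were recomputed under the alternatives. A change of sign was found in 4 of 760 values under other settings and in 38 of 1360 with a library left out, and in 0 of 477 values of genes that had met the call rule. That last count could hardly have come out otherwise. Those differences were past 2-fold, and the refits used mostly the same libraries, so nothing is read from it. With the CRISPR control added to wt, the number of the 10 genes called went from 1 to 0 at D0, from 3 to 1 in the interaction, from 2 to 0 in X129 reads at D0, from 3 to 0 in cast reads at D0 and from 1 to 0 in the X129 share at D15. By the DESeq2 Wald test it was 0 in X129 reads at D0. With a pseudocount of 0.1 TPM, 2 genes in place of 1 were called in E8 cells at D15. The cause of these shifts was not tested.

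With each library left out in turn, the genes called, Was included, numbered 2 to 4 at D15, 1 at D0, 6 to 7 between days in wt, 2 to 3 between days in KO and 2 to 3 in the interaction. In X129 reads they numbered 6 to 8 at D15 and 0 to 2 at D0, in cast reads 3 at D15 and 0 to 3 at D0, and in the X129 share 1 to 2 at D15. The count in X129 reads at D0 was 0 without KO D0 replicate 2 or wt D0 replicate 1 and 1 without KO D0 replicate 1 or either wt D15 library. In cast reads at D0 it was 0 without KO D0 replicate 2 or wt D0 replicate 1 and 1 without KO D0 replicate 1, and in the share at D15 it was 2 without KO D15 replicate 1. In E8 cells the counts did not move (2 at D7, 1 at D15). Praf2 ran from -0.062 to 0.31 between KO and wt at D15 and from -0.039 to 0.35 between days in KO, and Porcn in E8 cells at D7 from -0.055 to 0.016.

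Same-numbered libraries deviated with correlations of -0.21 to 0.22, the highest between the KO libraries of D0 and D15, so the numbers were not shown to pair samples across groups. The study used the same KO clones on both days, and the labels do not tie a number to a clone, so the fit without the block ignores a clone that the days may share. Kdm6a was higher in KO replicate 1 than in KO replicate 2 on both days (55.6 against 21.2 TPM at D0 and 41.6 against 12.8 TPM at D15). Whether the numbers follow the clones was not tested. With the replicate number as a block, 2 in place of 3 genes were called in cast reads at D0, and the other counts were as without the block (3 at D15, 3 between days in KO and 3 in the interaction, in diploid counts). The block was a single term shared by wt and KO. It cannot take up a difference between the KO clones alone, so nothing is read from the unchanged counts. Suv39h1 and Was alleles are limited by SNP reads.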
